A study of Mus musculus with 57 samples.

Results

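The comparison described here asks whether microglia without P2RY12 respond to lipopolysaccharide (LPS) as wild-type microglia do. P2RY12 is a G protein-coupled receptor for extracellular ADP that is abundant on resting microglia, steers their processes towards released nucleotides, and is lost from the surface during inflammation. LPS, a bacterial cell-wall component, is sensed by Tlr4 with its partners Cd14 and Ly96. The adaptor Myd88 passes the signal to NF-kappaB and so to genes such as Tnf, Il6 and the chemokines. A second branch induces interferon beta, whose receptor turns on interferon-stimulated genes.

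The interaction was measured in 24 samples, made from 25 of the 33 libraries of the LPS experiment, in a series of 57 libraries. Every library was made from polyadenylated RNA of CD11b-positive brain cells of adult mice, annotated as microglia. The 4 groups were wild type (WT) labelled ns, WT labelled LPS, P2RY12-deficient littermates (KO) labelled ns, and KO labelled LPS, with 6 samples each. The LPS dose was 1 mg/kg, given intraperitoneally. What ns stands for, how long after the injection cells were taken and how the KO allele was made are not given in the sources used here. They do not state that each library is a separate animal, so p-values measure the spread between these samples, which may be technical. Each group has 3 samples in library set 1 and 3 in library set 2, which are named by the first number of the library name, and the set was a term of the model.

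The 8 libraries with library number 2 were left out because the WT ones went against their treatment labels in 2 genes, P2ry12 and Saa3, an acute-phase gene that LPS induces. The number-2 libraries labelled WT ns had P2ry12 at 481 and 927 CPM and Saa3 at 1781 and 2491 CPM. CPM are read counts scaled to library size with TMM factors, computed over the whole LPS experiment for these 8 libraries and over the 24 samples for the samples kept. Those labelled WT LPS had P2ry12 at 4461 and 12150 CPM and Saa3 at 1.59 and 3.21 CPM. Among the samples kept, P2ry12 in WT ns ran from 3598 over a median of 4235 to 5309 CPM, and in WT LPS from 395 over 505 to 1118 CPM. In KO ns it ran from 616 over 646 to 1302 CPM, and in KO LPS from 83.5 over 99.1 to 111 CPM, so KO ns lay below all WT ns samples in the targeted gene but was not at 0, and KO LPS lay below all WT LPS samples. Saa3 ran from 1.53 to 65.8 CPM in WT ns, 1418 to 10230 CPM in WT LPS, 0.838 to 3.16 CPM in KO ns and 1023 to 1380 CPM in KO LPS. These 2 genes selected the libraries and are given without a test.

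In the kept data, 2 samples stood apart from their groups. WT LPS 7 and KO ns 6 had 6.74% and 8.55% of counts on mitochondrially encoded genes, against 0.787% to 1.81% in the other 22 samples. Their median correlation with the other samples of their group, over log2 CPM, was 0.886 and 0.867, against at least 0.976 in the others. Both belong to set 2 and carry library number 3. The main results are therefore given for all 24 samples and for the 22 samples without that pair, a choice made after the data were seen. Totals ran from 18 to 168.4 M counts with a median of 24.7 M, M standing for mega. Set 1 had Xist at no more than 2.1 CPM and Ddx3y at 94.9 to 136 CPM, and set 2 had Xist at 824 to 1360 CPM and Ddx3y at no more than 0.518 CPM. The labels give no sex for this experiment. Summed over 10 microglia markers, among them P2ry12, levels ran from 17250 to 42580 CPM and no marker was at 0 in every sample of a group. The median sum was 35360 CPM in WT ns, 21940 in WT LPS, 34550 in KO ns and 24590 in KO LPS.

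**Figure D1:**
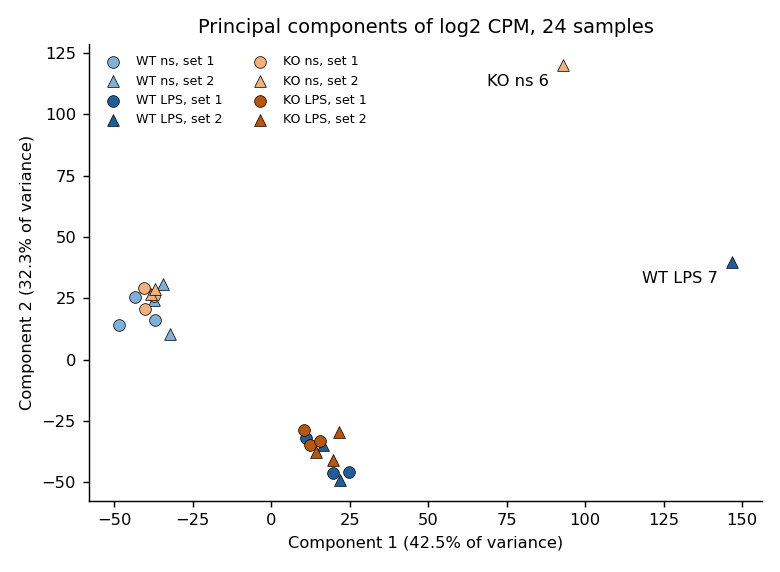
The first and second principal components of log2 CPM of the 24 samples, which carry 42.5% and 32.3% of the variance, are plotted with colours for the 4 groups and circles or triangles for library sets 1 and 2. The ns samples gather on the left and the LPS samples at the bottom centre with both genotypes mixed, and WT LPS 7 and KO ns 6 lie away from both clusters.

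The interaction of a gene is its log2 response to LPS in KO minus its log2 response in WT. With edgeR's quasi-likelihood test and Benjamini-Hochberg adjustment over 15816 genes, 0 genes were called at an adjusted p under 0.05 (0%). The same fit had 1574 genes at an unadjusted p under 0.05 (9.95%), of which 427 had a higher interaction (2.7%) and 1147 a lower one (7.25%). DESeq2 called 6 genes in the same samples, which were Pgk1, Lox, 1700126G02Rik, Gm20109, Clstn3 and Wdr41. Without WT LPS 7 and KO ns 6, edgeR called 1 of 16063 genes (0.00623%), Pgk1, and DESeq2 called 4, which were Pgk1, Wdr41, Lox and 1700126G02Rik. At an unadjusted p under 0.05 there were then 722 genes (4.49%), 392 of them higher (2.44%) and 330 lower (2.05%). Among genes at that level, the excess of lower over higher estimates in the 24 samples was not present in the 22. Within set 1 alone, which holds neither of the pair, edgeR called 0 genes with 4.42% at an unadjusted p under 0.05, and within set 2 alone it called 0 with 7.18%.

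LPS itself changed a large part of the transcriptome. By the response averaged over the genotypes, 3258 genes rose (20.6%) and 3797 fell (24%) in the 24 samples, and 5223 rose (32.5%) and 5083 fell (31.6%) in the 22. These are called LPS genes here. A response was counted as equal where the 95% confidence interval of the interaction lay within 1 on the log2 scale, that is within 2-fold either way, since a p that misses its threshold does not show equality. Of 7055 LPS genes, 3121 were equal (44.24%), 3934 were undetermined, and 0 were called larger or smaller in KO by edgeR. Of these genes 181 (2.566%) had an unadjusted p under 0.05 with a larger response in KO and 399 (5.656%) with a smaller one. DESeq2 called 2 larger and 1 smaller. Without the pair, 7716 of 10306 LPS genes were equal (74.87%) and 2590 were undetermined. At an unadjusted p under 0.05, 207 (2.009%) then had a larger and 306 (2.969%) a smaller response in KO. Of all 10306 estimates, 5817 were smaller in KO. In both fits more LPS genes at that level were smaller than larger in KO. Of the equal genes, 1407 in the 24 samples and 4164 in the 22 had an averaged response under 0.5 on the log2 scale. At that size a response absent in 1 genotype would still differ by less than the margin, so equality there says little. Equal means within 2-fold, not identical: 70 equal genes in the 24 samples and 265 in the 22 had an unadjusted p under 0.05. Over all genes tested, LPS genes or not, the interval lay inside the margin for 35.7% in the 24 samples and for 69.2% in the 22. The lists of genes described further on are counted in that second way, over all tested members, and without P2ry12 and Saa3.

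The share of equal responses was higher among genes that rose than among genes that fell. In the 22 samples 4121 of 5223 risen genes (78.9%) and 3595 of 5083 fallen genes (70.73%) were equal. Their median interactions were -0.02 and 0.04 on the log2 scale. In the 24 samples 47.91% of risen and 41.09% of fallen genes were equal, with medians of -0.01 and 0.19. A gene's interval was 0.38 to either side at the median in the 22 samples and 0.72 in the 24. Of the 3934 genes undetermined in the 24 samples, 1844 were equal in the 22, and 3010 genes were equal in both.

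**Figure D2:**
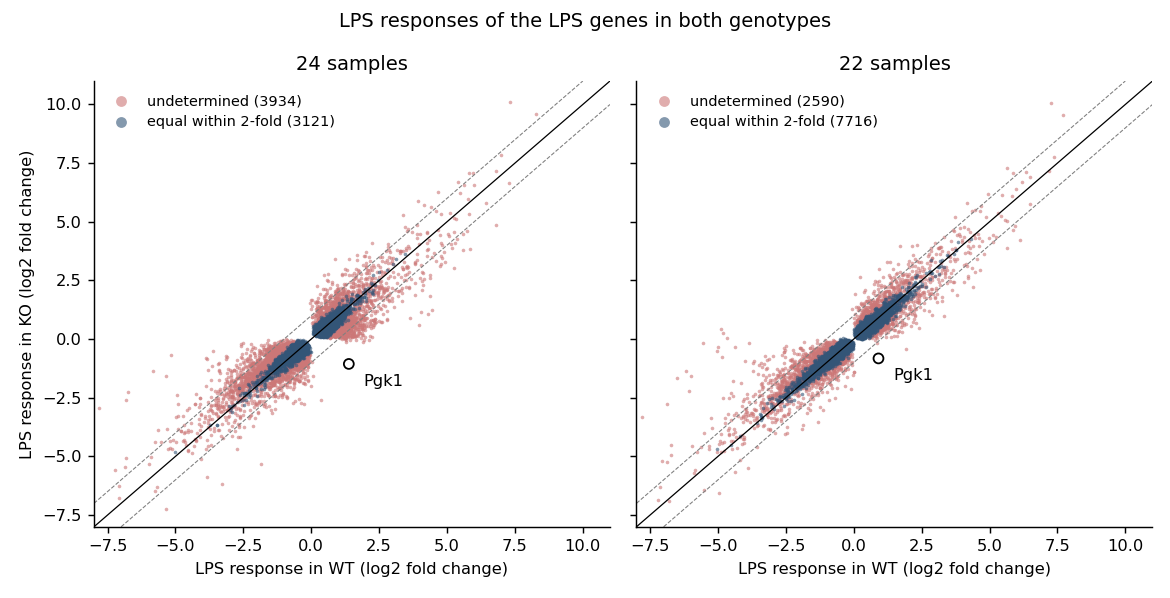
The log2 LPS response in KO is plotted against that in WT for each LPS gene, for the 24 samples (left) and the 22 samples without WT LPS 7 and KO ns 6 (right). Blue points are equal within 2-fold, red points are undetermined, the solid line marks equal responses, the dashed lines mark 2-fold differences, and the circle marks Pgk1, which is not an LPS gene because its responses have opposite signs.

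The share of equal genes depended on how large the response was. In the 22 samples it was 97.77% of 4259 LPS genes with an averaged response under 0.5 on the log2 scale, 75.11% between 0.5 and 1, 48.24% between 1 and 2, 20.48% between 2 and 4, and 3.419% of 117 genes over 4. The median interval widened along with it, from 0.272 to either side in the smallest class to 1.77 in the largest. For most of the strongest LPS genes a 2-fold difference between genotypes was therefore not decided in either direction.

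**Figure D3:**
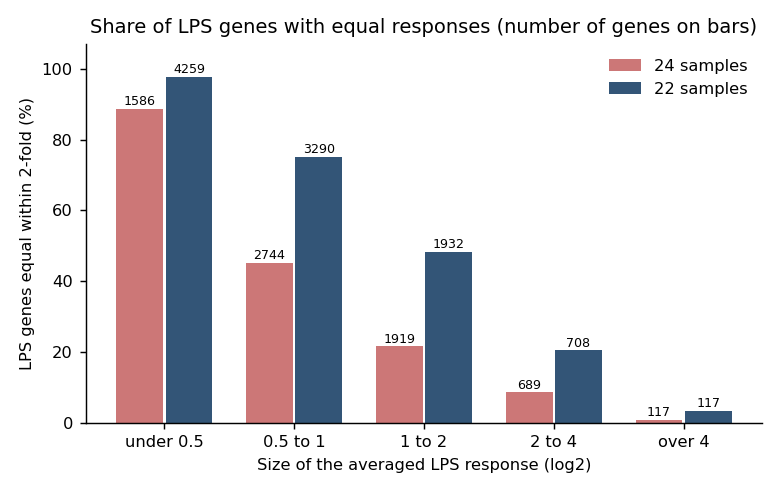
Bars give the percentage of LPS genes whose interaction lay within 2-fold, by the size of the averaged LPS response on the log2 scale, for the 24 samples (red) and the 22 (blue), with the number of genes on each bar. In both the share falls as the response grows, from 88.71% to 0.8547% and from 97.77% to 3.419%.

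Among the strongest genes whose equality was decided, Socs3, a feedback inhibitor of cytokine receptors, ran from 21.3 over a median of 26.7 to 39.5 CPM in WT ns and from 201 over 237 to 310 CPM in WT LPS. In KO it ran from 14.2 over 24.9 to 27.9 CPM in ns and from 225 over 256 to 268 CPM in LPS. The groups with LPS lay above those without it and the genotypes overlapped in both. Its interaction was 0.31 ± 0.23 (SE) in the 24 samples, with an interval of -0.16 to 0.79, and 0.17 ± 0.19 in the 22. Chpf, a chondroitin-synthesis enzyme, rose by 3.54 ± 0.18 on average with an interaction of 0.19 ± 0.34 in the 24 samples and 0.07 ± 0.32 in the 22. Il2rg, the shared gamma chain of several interleukin receptors, rose by 2.50 ± 0.13 with interactions of 0.47 ± 0.25 and 0.39 ± 0.20. Lgals3bp, Igsf6, Slc13a3, 2210406H18Rik, Ccdc86 and Ifi30, a lysosomal reductase for antigens, rose by 2.29 to 2.87 and were equal in both fits. The interval of Ifi30 in the 22 samples, 0.07 to 0.74, lay inside the margin but above 0. Ifi204, an interferon-induced DNA sensor, was equal in the 24 samples and had an interval of 0.06 to 1.04 in the 22.

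On the falling side, Upk1b, a tetraspanin counted here among the homeostatic genes, had the largest averaged fall of an equal gene. It ran from 90 over 116 to 139 CPM in WT ns and from 1.91 over 3.27 to 6.06 CPM in WT LPS, and from 113 over 133 to 202 CPM in KO ns and 4.14 over 4.98 to 5.99 CPM in KO LPS. Its averaged response was -4.91 ± 0.17 and its interaction 0.23 ± 0.29 in the 24 samples and 0.37 ± 0.27 in the 22. H2-Eb1, an MHC class II chain, had an averaged response of -3.57 ± 0.18 and an interaction of -0.23 ± 0.32, and -0.03 ± 0.29 in the 22. Angptl7, Gm35135 and Tcf24 were equal in the 24 samples, but their intervals in the 22 samples reached past the margin, at -1.04 to 0.29, -1.19 to 1.71 and -1.01 to 0.87.

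Pgk1 encodes phosphoglycerate kinase of glycolysis and lies at chrX:105230706-105247305 on the plus strand of GRCm39. It ran from 27.4 over 30.6 to 55.5 CPM in WT ns and from 54.9 over 72.7 to 261 CPM in WT LPS, and from 132 over 143 to 283 CPM in KO ns and from 61 over 78.2 to 92.2 CPM in KO LPS. All KO ns samples exceeded all WT ns samples and all KO LPS samples, and WT LPS and KO LPS overlapped. The highest values in WT LPS and KO ns came from WT LPS 7 and KO ns 6, and without them these groups reached 78.7 and 147 CPM. Its response was 1.39 ± 0.32 in WT and -1.06 ± 0.32 in KO, an interaction of -2.44 ± 0.45 with an adjusted p of 0.305 by edgeR in the 24 samples. Without the pair it was 0.91 ± 0.15 in WT and -0.82 ± 0.15 in KO, and the interaction was -1.73 ± 0.21 with an adjusted p of 0.00129. Put the other way, KO exceeded WT by 1.90 ± 0.15 in ns and by 0.17 ± 0.15 in LPS in those 22 samples. The interaction of Pgk1 was -1.80 ± 0.28 within set 1 and -3.13 ± 0.82 within set 2. Set 2 holds both WT LPS 7 and KO ns 6 and was not fitted alone without them. In the series' other experiment, which compared genotypes without LPS in both sexes, the 8 WT libraries had Pgk1 at 10.8 ± 6.93 CPM (SD) and the 10 KO libraries at 36.4 ± 6.71 CPM, with a log2 difference of 1.75 ± 0.27 and an adjusted p of 0.0123 by edgeR.

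Other genes of glycolysis and the hypoxia response did not share this pattern. Of 28 tested, 11 rose and 6 fell with LPS in the 24 samples and 13 rose and 7 fell in the 22, and 12 and 20 lay inside the margin. In the 22 samples 1 was called for the interaction, Pgk1, and the median interaction was 0.16, against 0.00 over all genes. Ldha, lactate dehydrogenase, rose in both fits, with interactions of -0.42 ± 0.39 in the 24 samples and 0.23 ± 0.16 in the 22. Vegfa, a growth factor for vessels induced by low oxygen, fell with LPS, with responses of -2.31 ± 0.40 in WT and -0.82 ± 0.38 in KO in the 24 samples and an interaction of 1.49 ± 0.54, and of 1.25 ± 0.54 in the 22, with adjusted p of 0.457 and 0.977 by edgeR.

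Lox, an enzyme that crosslinks collagen and elastin, was low in every group. It ran from 0.86 over 1.26 to 1.65 CPM in WT ns, 4.21 over 10.4 to 34.1 CPM in WT LPS, 2.86 over 4.32 to 5.69 CPM in KO ns and 5.28 over 6.79 to 13.3 CPM in KO LPS. KO ns lay wholly above WT ns, and the groups with LPS overlapped. Its interaction was -2.71 ± 0.55 in the 24 samples and -2.33 ± 0.54 in the 22, with adjusted p of 0.331 and 0.887 by edgeR. By DESeq2 the interaction of Lox had an adjusted p of 0.00496 in the 24 samples and 0.0344 in the 22. The KO libraries of the other experiment also had more Lox than the WT libraries, at 2.32 ± 0.546 against 0.769 ± 0.341 CPM (SD, n = 10 and n = 8), with an adjusted p of 0.00866 by edgeR.

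Wdr41, part of the C9orf72 complex at lysosomes, lies at chr13:95112226-95161800 (GRCm39, plus strand). It ran from 65.1 over 72.6 to 82.1 CPM in WT ns, 52.2 over 59.9 to 70.6 CPM in WT LPS, 115 over 121 to 132 CPM in KO ns and 58.1 over 72.8 to 79.3 CPM in KO LPS. KO ns alone lay above all other groups. Its interaction was -0.51 ± 0.14 in the 24 samples and -0.60 ± 0.12 in the 22, with adjusted p of 0.457 and 0.364 by edgeR, and it was within 2-fold in both. By DESeq2 the interaction of Wdr41 had an adjusted p of 0.031 and 0.0343. At rest in the other experiment its genotypes differed by 0.10 ± 0.09 with an adjusted p of 0.855 by edgeR, so its KO excess at rest was seen in this experiment and not called in the other; the difference between the experiments was not tested. Gm20109 and 1700126G02Rik, transcripts of under 2 CPM in every sample, had interactions of -2.04 ± 0.41 and 2.78 ± 0.69 in the 24 samples, with adjusted p of 0.331 and 0.457 by edgeR, and -1.81 ± 0.40 and 2.29 ± 0.49 in the 22. Amz1, a metallopeptidase gene, fell with LPS by 3.24 ± 0.17 in WT and by 2.49 ± 0.16 in KO on the log2 scale, and its interaction of 0.75 ± 0.22 was 0.54 ± 0.17 in the 22, inside the margin.

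**Figure D4:**
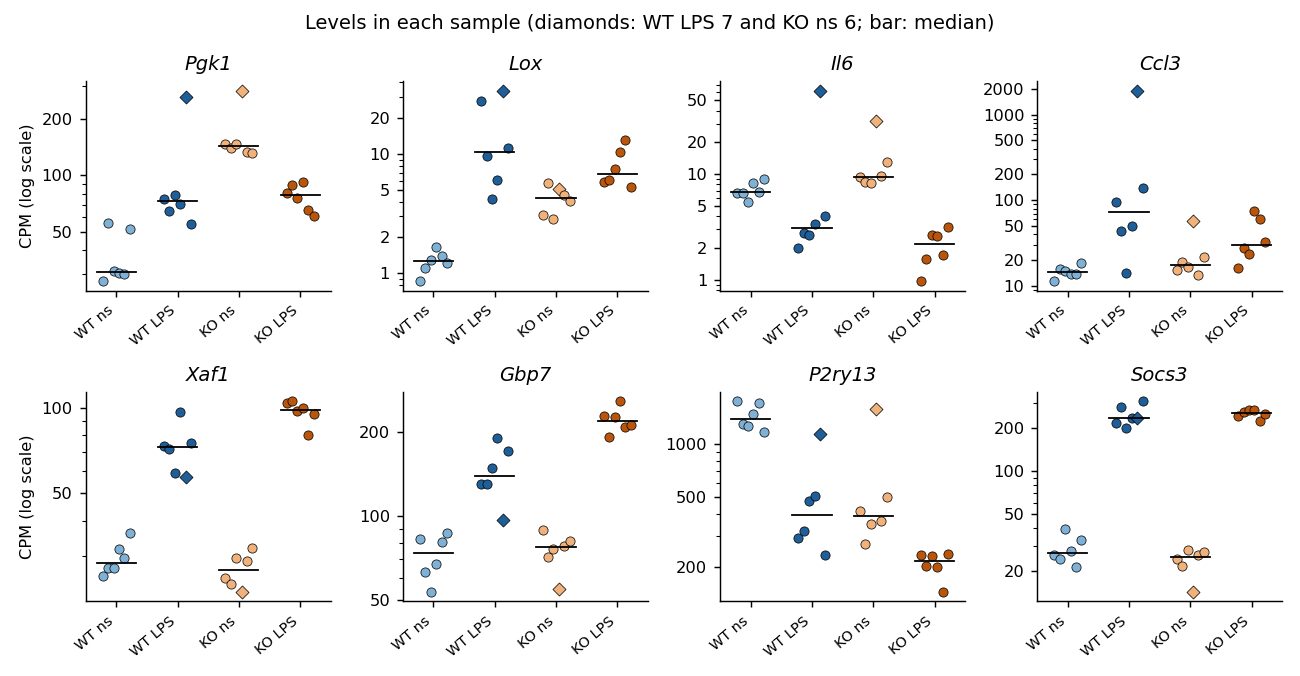
Each point is the level of a gene in 1 sample in CPM on a log axis, bars are group medians over 6 samples, and diamonds are WT LPS 7 and KO ns 6. Pgk1 in KO ns lies above both WT ns and KO LPS, the diamonds set the highest Il6 and Ccl3 values in WT LPS and KO ns, Xaf1 and Gbp7 are higher at the median in KO LPS than in WT LPS, and Socs3 is alike in both genotypes.

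Of 16 sensing and adaptor genes of the LPS pathway, 7 lay inside the margin in the 24 samples and 14 in the 22, and the median interaction went from 0.12 to -0.05. Tlr2, a receptor for bacterial lipoproteins that LPS induces, rose with interactions of -0.99 ± 0.41 in the 24 samples and -0.30 ± 0.16 in the 22. Its 5102 CPM in WT LPS 7 compared with at most 1319 CPM in the other WT LPS samples. Ly96, the LPS-binding partner of Tlr4, was at 74.6 CPM in WT LPS 7 and 99.7 CPM in KO ns 6 and at most 16.7 CPM in all other samples. Of 15 NF-kappaB subunits and inhibitors, 9 lay inside the margin in the 24 samples and 11 in the 22. Nfkbia, the inhibitor that NF-kappaB itself induces, rose with interactions of -0.71 ± 0.30 and -0.58 ± 0.30, both with adjusted p above the threshold at 0.457 and 0.977 by edgeR.

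Of 15 inflammatory cytokines tested, 8 rose and 2 fell with LPS in the 24 samples. Their median interaction was -0.21 in the 24 samples, with 6 of 15 higher, and 0.16 in the 22, with 9 of 15 higher, and 4 and 8 lay inside the margin. Il6, a cytokine that LPS commonly induces, had fewer reads after LPS in most of these samples. It ran from 5.43 over 6.71 to 8.91 CPM in WT ns, 2 over 3.08 to 62 CPM in WT LPS, 8.21 over 9.49 to 31.8 CPM in KO ns and 0.969 over 2.17 to 3.14 CPM in KO LPS. Without the pair WT LPS reached 4.05 CPM and lay wholly below WT ns, as KO LPS lay wholly below KO ns. Its response was then -1.17 ± 0.19 in WT and -2.25 ± 0.19 in KO, an interaction of -1.08 ± 0.27 with an adjusted p of 0.887 by edgeR, against -2.93 ± 0.87 and 0.457 in the 24 samples. Ccl3, a chemokine for monocytes, ran from 11.4 over 14.3 to 18.7 CPM in WT ns, 14.3 over 72.2 to 1911 CPM in WT LPS, 13.5 over 17.7 to 57.4 CPM in KO ns and 16 over 29.9 to 75.1 CPM in KO LPS. Its WT LPS and KO LPS values overlapped, with interactions of -3.37 ± 1.03 in the 24 samples and -1.24 ± 0.55 in the 22 and adjusted p of 0.457 and 0.977 by edgeR.

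Over 15 chemokines tested, 13 rose with LPS in the 24 samples and the median interaction was -1.02, and it was -0.08 in the 22. Of these, 1 lay inside the margin in the 24 samples and 2 in the 22, so for most chemokines the data set no limit of 2-fold. Cxcl13, a B cell attractant, and Cxcl2, a neutrophil attractant, were the chemokines with the largest averaged rise, and had interactions of 0.41 ± 0.85 and -0.08 ± 1.06 in the 22 samples and of -0.61 ± 0.97 and -0.69 ± 0.87 in the 24. Tnf ran from 2.7 over 4.66 to 13.5 CPM in WT ns, 52.3 over 113 to 512 CPM in WT LPS, 2.83 over 4.36 to 5.83 CPM in KO ns and 47.8 over 72 to 147 CPM in KO LPS. The LPS groups lay above the ns groups and overlapped each other, and the interaction was -0.68 ± 0.58 in the 24 samples and -0.10 ± 0.50 in the 22. Il1b had an interaction of -0.91 ± 1.00 in the 24 samples and 1.21 ± 0.49 in the 22, with adjusted p of 0.634 and 0.977 by edgeR; its 2892 CPM in WT LPS 7 compared with at most 188 CPM in the other WT LPS samples.

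Genes of the type I interferon response had mostly higher estimates in KO in both fits. All 29 tested members rose with LPS. In the 24 samples 20 of 29 had a higher interaction, 5 of them at an unadjusted p under 0.05 and 0 lower at that level, with a median of 0.30 against 0.08 over all genes, of which 2.7% were higher at that level. In the 22 samples 27 of 29 were higher, 8 of them at that level and 0 lower, with a median of 0.39 against 0.00 over all genes, of which 2.44% were higher at that level. None was called after adjustment, and 5 lay inside the margin in the 24 samples and 12 in the 22. The mean log2 CPM of the list was 6.35 in WT LPS 5, 5.95 in WT LPS 7 and 5.16 to 5.61 in the other WT LPS samples, against 5.35 to 6.29 in KO LPS, so the groups with LPS overlapped.

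Xaf1, an interferon-induced gene linked to cell death, lies at chr11:72192229-72204560 (GRCm39, plus strand). It ran from 25.4 over 28.4 to 36.3 CPM in WT ns, 56.9 over 72.7 to 96.6 CPM in WT LPS, 22.4 over 26.9 to 32.1 CPM in KO ns and 80.2 over 98.5 to 106 CPM in KO LPS. Of the WT LPS samples, WT LPS 5 alone reached the KO LPS range. The interaction was 0.56 ± 0.18 in the 24 samples and 0.40 ± 0.14 in the 22, within 2-fold in both, and 0.65 without WT LPS 5. Within set 1 the interaction of Xaf1 was 0.59 ± 0.15 and within set 2 it was 0.49 ± 0.36. Zbp1, a sensor of nucleic acids, had interactions of 0.81 ± 0.30 and 0.60 ± 0.27, and Oasl2 of 1.21 ± 0.43 and 0.85 ± 0.34, with adjusted p of 0.457 in the 24 samples by edgeR. Not all members shared the direction. Ifit1, which binds foreign RNA, had interactions of -0.75 ± 0.48 and -0.35 ± 0.44, and Isg15, a ubiquitin-like protein, of -0.68 ± 0.65 in the 24 samples and 0.39 ± 0.37 in the 22.

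The guanylate-binding proteins and immunity-related GTPases, which attack the vacuoles of intracellular microbes, had a median interaction of 0.28 in the 24 samples and 0.36 in the 22, with 12 and 13 of 15 members higher. The medians over all genes were 0.08 and 0.00. At an unadjusted p under 0.05, 3 of 15 were higher in the 24 samples and 5 of 15 in the 22, against 2.7% and 2.44% of all genes, and 0 were lower. Gbp7 ran from 53.5 over 74 to 86.9 CPM in WT ns, 96.8 over 140 to 190 CPM in WT LPS, 54.8 over 77.4 to 89 CPM in KO ns and 193 over 220 to 259 CPM in KO LPS. All KO LPS samples exceeded all WT LPS samples, and the ns groups overlapped. Its interaction was 0.55 ± 0.22 in the 24 samples and 0.32 ± 0.15 in the 22, inside the margin there. Of 19 antigen-presentation genes, 18 had higher interactions in the 22 samples and 13 in the 24, with medians of 0.27 and 0.24. At an unadjusted p under 0.05, 3 of 19 were higher and 0 lower in the 22 samples. In the 24 samples 4 were higher at that level and 1 lower, B2m. H2-T23, a non-classical MHC class I gene, ran from 167 over 194 to 284 CPM in WT LPS and 235 over 322 to 372 CPM in KO LPS, with an interaction of 0.51 ± 0.21 and an adjusted p of 0.457 by edgeR in the 24 samples, and of 0.50 ± 0.18 in the 22.

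Promoters were searched on either strand for the core of the interferon-stimulated response element, which is GAAA, any 2 bases and GAAA again, from 250 bases before to 50 after the start of each gene (RefSeq, GRCm38.p6). Of 10753 tested genes matched by symbol, 428 held it (3.98%). Of LPS-risen genes equal in the 22 samples 4.35% held it, and of risen genes undetermined there 7.94%. Of the risen genes with an unadjusted p under 0.05 in the 22 samples, 19 of 95 with a larger response in KO held it (20%) and 1 of 108 with a smaller one (0.926%). Of the 19, 2 belong to the interferon list, Eif2ak2 and Ifitm3. Igtp, Gbp3 and Gbp7 belong to the guanylate-binding list and H2-T23 to the antigen-presentation list, so this share is not independent of those lists. These shares are a description of genes selected by p, with no test. The 6 of the 19 with the lowest p whose first match lies before the start are shown in 60 bases of the gene's own strand, 5′ to 3′, because they are the members this share rests on. Capitals mark the match, which reads TTTC, any 2 bases and TTTC where it lies on the other strand.
Igtp, chr11:58199496-58199555, plus strand: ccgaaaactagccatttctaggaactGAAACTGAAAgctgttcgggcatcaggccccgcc
Ifi207, chr1:173741816-173741875, minus strand: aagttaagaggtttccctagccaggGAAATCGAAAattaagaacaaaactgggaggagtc
Slfn5, chr11:82951922-82951981, plus strand: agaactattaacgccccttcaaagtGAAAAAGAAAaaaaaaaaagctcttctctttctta
Ifi213, chr1:173599311-173599370, minus strand: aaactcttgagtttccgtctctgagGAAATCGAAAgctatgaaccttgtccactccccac
Oas1c, chr5:120812594-120812653, minus strand: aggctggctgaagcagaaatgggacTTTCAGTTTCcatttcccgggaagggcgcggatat
Ifi211, chr1:173913049-173913108, minus strand: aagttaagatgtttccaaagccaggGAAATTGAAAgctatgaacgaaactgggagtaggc

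The match begins 34 bases before the start in Igtp, 41 in Ifi207, 155 in Slfn5, 73 in Ifi213, 114 in Oas1c and 37 in Ifi211. Igtp is an immunity-related GTPase, Ifi207, Ifi211 and Ifi213 belong to the Ifi200 family of DNA-binding proteins clustered on chromosome 1, Slfn5 is a Schlafen gene, and Oas1c belongs to the oligoadenylate synthetases. Their interactions in the 22 samples were 0.37 ± 0.13, 0.65 ± 0.22, 0.91 ± 0.31, 0.78 ± 0.27, 0.58 ± 0.21 and 0.97 ± 0.36 in that order, and none passed the adjusted threshold. The Ifi200 genes resemble each other, and reads that fit several of them could have been split or lost in the authors' counting.

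Genes of homeostatic microglia fell with LPS, and most estimates of the interaction were positive, the direction of a smaller fall in KO, as among fallen LPS genes as a whole. Of 25 tested beside P2ry12, 22 fell and 0 rose in the 24 samples, and 23 fell in the 22. The interaction was higher in 16 of 25 in the 24 samples, with a median of 0.23 against 0.08 over all genes, and in 21 of 25 in the 22, with a median of 0.14 against 0.00. Over all fallen LPS genes it was higher in 2549 of 3797 in the 24 samples and in 2959 of 5083 in the 22. At an unadjusted p under 0.05, 0 of the 25 were higher in the 24 samples and 1 in the 22, P2ry13. Over all genes the shares higher at that level were 2.7% and 2.44%. Of the 25, 8 and 19 lay inside the margin. Tmem119, a microglial surface protein, ran from 2070 over 2542 to 3660 CPM in WT ns, 912 over 1670 to 1987 CPM in WT LPS, 2464 over 2672 to 2818 CPM in KO ns and 1189 over 1858 to 2041 CPM in KO LPS. Both LPS groups lay below both ns groups, and its interaction was 0.13 ± 0.25 in the 24 samples and 0.19 ± 0.24 in the 22. Sall1, a transcription factor of microglial identity, fell with interactions of 0.72 ± 0.46 in the 24 samples and 0.27 ± 0.19 in the 22.

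The receptor P2ry13 and the gene Med12l lie at the locus of P2ry12. On GRCm39, Med12l spans chr3:58912820-59225867 on the plus strand, and P2ry12 at chr3:59123692-59170408 and P2ry13 at chr3:59115313-59118303 lie inside it on the minus strand, so that reads of Med12l and of the receptors could be shared if strand was not counted, which is not given in the sources used here. P2ry13, another ADP receptor, ran from 1181 over 1389 to 1756 CPM in WT ns, 233 over 396 to 1139 CPM in WT LPS, 271 over 391 to 1585 CPM in KO ns and 144 over 217 to 238 CPM in KO LPS. Its highest values in WT LPS and KO ns came from WT LPS 7 and KO ns 6, and without them these groups reached 504 and 498 CPM. The interaction was 0.25 ± 0.52 in the 24 samples and 1.09 ± 0.27 in the 22, where the response was -1.94 ± 0.20 in WT and -0.85 ± 0.19 in KO, with an adjusted p of 0.887 by edgeR. Med12l had interactions of 0.73 ± 0.25 and 0.46 ± 0.15. P2ry6, the UDP receptor that promotes phagocytosis, rose with LPS and was equal, with interactions of 0.03 ± 0.20 in the 24 samples and 0.05 ± 0.19 in the 22. Of 20 purinergic receptors and nucleotide enzymes tested, 8 lay inside the margin in the 24 samples and 10 in the 22. Their median interaction was 0.27 in the 24 samples and 0.26 in the 22, with 13 and 15 of 20 higher. At an unadjusted p under 0.05, 1 was higher and 1 lower in the 24 samples. In the 22, 4 were higher at that level, P2rx1, P2ry14, Ada and Enpp1, and 0 lower, against 2.44% higher over all genes.

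The respiratory chain shows how far the pair set the 24-sample values. Of 48 nuclear-encoded subunits, 46 had a lower interaction in the 24 samples, with a median of -0.93, and 10 lay inside the margin. In the 22 samples 45 rose with LPS, 48 lay inside the margin, and the median interaction was 0.08. The mean log2 CPM of these subunits was 7.56 in WT LPS 7 and 7.21 in KO ns 6, against at most 5.81 in the other WT LPS samples and 5.33 in the other KO ns samples. Ndufv2, a subunit of complex I, ran from 29.6 over 35 to 38.8 CPM in WT ns, 49 over 51.1 to 284 CPM in WT LPS, 33.1 over 35.6 to 214 CPM in KO ns and 45.5 over 50 to 53.1 CPM in KO LPS. Its interaction was -1.44 ± 0.63 in the 24 samples and -0.12 ± 0.09 in the 22, and within set 1 the interaction of Ndufv2 was -0.10 ± 0.14. Of 9 mitochondrially encoded genes, 0 lay inside the margin in the 24 samples, with a median interaction of -1.69, and 7 in the 22, with a median of 0.05. WT LPS 7 and KO ns 6 had been set apart by their share of these reads, so this change is no separate evidence. Of 25 lysosome and phagocytosis genes, 8 lay inside the margin in the 24 samples and 23 in the 22. Fcer1g, the signalling chain of Fc receptors, had interactions of -1.41 ± 0.67 and 0.01 ± 0.09.

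**Figure D5:**
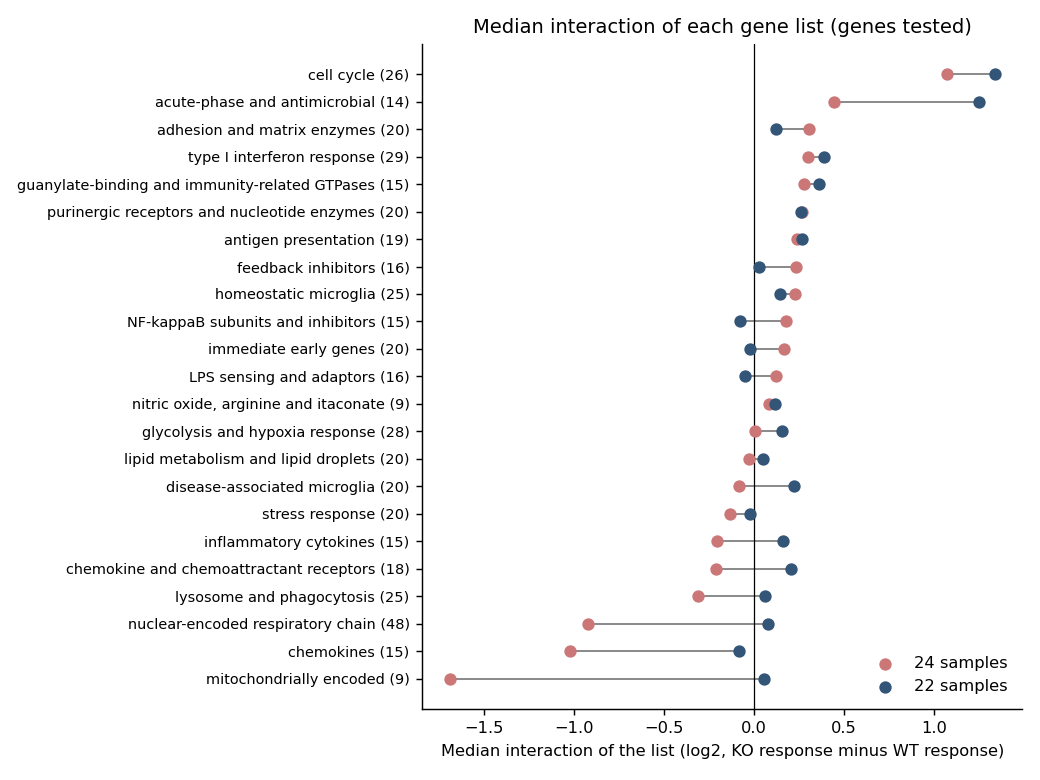
For each gene list, with the number of genes tested in brackets, the red point is the median log2 interaction in the 24 samples and the blue point that in the 22. The mitochondrial, respiratory chain and chemokine lists move from medians of -1.69, -0.93 and -1.02 to within 0.1 of 0. Other lists stay above 0 in both, among them the interferon, guanylate-binding, cell-cycle and purinergic lists.

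Cell-cycle genes, acute-phase genes and the markers of other myeloid cells had high list medians in the 22 samples, where the ns samples were uneven in these genes. Of 26 cell-cycle genes, 24 had a higher interaction in the 24 samples and 26 in the 22, with medians of 1.07 and 1.34. At an unadjusted p under 0.05, 5 of 26 and 1 of 26 were higher, against 2.7% and 2.44% of all genes. Mki67, a marker of dividing cells, ran from 12.4 over 25.6 to 173 CPM in WT ns and from 3.18 over 7.47 to 49.1 CPM in KO ns, against 10.5 to 38.4 CPM in WT LPS and 5.83 to 30.8 CPM in KO LPS. Summed over 14 neutrophil markers, WT ns ran from 386 to 20710 CPM, with 20710 in WT ns 3 and 19180 in WT ns 8, and KO ns ran from 338 to 11080 CPM, with 8562 in KO ns 4. WT LPS ran from 3176 to 16840 CPM, the highest in WT LPS 7, and KO LPS from 1682 to 3271 CPM. Summed over 12 monocyte markers, the ranges were 213 to 3202 CPM in WT ns, 713 to 3193 CPM in WT LPS, 114 to 1466 CPM in KO ns and 557 to 944 CPM in KO LPS. No marker of either list was at 0 throughout a group. In bulk samples, fewer cells of a type and less RNA per cell cannot be told apart.

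In the 24 samples 7 of 14 neutrophil markers had a higher interaction, with a median of 0.33, and in the 22 samples 14 of 14, with a median of 1.43. Of 12 monocyte markers, 6 were higher in the 24 samples, with a median of 0.09, and 12 in the 22, with a median of 0.84. Among 14 acute-phase and antimicrobial genes beside Saa3, several of which are neutrophil granule genes, 8 were higher in the 24 samples, with a median of 0.44, and 13 in the 22, with a median of 1.25. Leaving out WT ns 3, WT ns 8 and KO ns 4 as well, chosen after seeing the data for their neutrophil sums, leaves 19 samples. There edgeR called 1 of 16003 genes (0.00625%), Pgk1, with an adjusted p of 4.33e-07. At an unadjusted p under 0.05, 2.01% of genes were higher and 1.57% lower. The median of the cell-cycle list was then 0.54, that of the neutrophil markers 0.81 and that of the acute-phase list 0.79, and 19 of 26 cell-cycle genes rose with LPS, against 7 in the 22 samples. The interferon list kept a median of 0.31 with 23 of 29 members higher, 5 of them at an unadjusted p under 0.05 and 0 lower, and the guanylate-binding list a median of 0.24 with 14 of 15 higher. What part the neutrophil and monocyte reads had in the interferon values of the other samples was not tested. The interaction of Pgk1 in the 19 samples was -2.05 ± 0.15. WT ns 3 and WT ns 8 had held the 2 highest WT ns values of Pgk1, at 55.5 and 51.7 CPM.

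WT LPS 5, the sample with the highest interferon mean, also departed from its group in Ccr1l1 and in border-associated macrophage markers, whose sum was 586 CPM there and 181 to 275 CPM in the WT LPS samples other than WT LPS 7, which had 531 CPM. Leaving out WT LPS 5 raised the genes at an unadjusted p under 0.05 from 1574 to 2677, with 0 called by edgeR. Ccr1l1, a chemokine receptor gene, ran from 93 to 288 CPM in WT ns and from 271 to 538 CPM in 5 of the 6 WT LPS samples, but was at 1.21 CPM in WT LPS 5. KO ns ran from 1.45 to 8.9 CPM and KO LPS from 0.357 to 1.11 CPM, so WT LPS 5 lay near the KO samples in this gene, while its P2ry12 lay within the range of WT LPS. In the other experiment Ccr1l1 was low in both genotypes, at 5.03 ± 1.33 CPM in WT and 4.28 ± 1.27 CPM in KO (SD, n = 8 and n = 10), with a difference of -0.22 ± 0.15 and an adjusted p of 0.747 by edgeR. The interaction of Ccr1l1 was -2.93 ± 1.01 in the 24 samples and -2.06 ± 1.13 in the 22. With 1 sample left out it ran from -3.17 without WT LPS 5 to -2.28 without KO ns 6.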

How the data were processed

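Gene expression was measured by polyA RNA-seq. The deposited values are raw read counts per gene, and per the submitters' processing notes STAR 2.6.1, featureCounts (Subread), FastQC, DESeq2 and the build GRCm39 were used, with no role or order stated. The strand setting and filters are not given in the sources used here. Of 53278 genes, 15816 passed edgeR's filterByExpr in the 24 samples. Totals ran from 18 to 168.4 M counts, and edgeR's common biological coefficient of variation was 36.4%, and 23% in the 22 samples.

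From the counts, edgeR 4.0.16 (R 4.3.3) fitted 4 groups plus the library set with TMM factors and the robust quasi-likelihood F test, with Benjamini-Hochberg adjustment over all genes tested and a threshold of 0.05. The standard error is the log2 difference divided by the square root of F. WT LPS 8 and WT LPS 9 were summed, and counted as 1 sample because their counts were the closest of any pair within a group (chi-square per degree of freedom 1.86, against at least 8.32), so that they may be 1 library split in 2. DESeq2 1.42.0, other scalings, filters, designs and margins, each library set alone, and each sample left out were tried as alternatives. The 22-sample and 19-sample fits were added after the data were seen. The script was tested on simulated data that held no samples standing apart from their group, so that test does not cover the effect of such samples.

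The members and lists were chosen with earlier results of these data known. Named genes are those with the lowest interaction p, the largest equal responses, and, in each list, the largest LPS responses and the lowest p. Those named beyond that (Med12l, Gbp7, H2-T23, Tmem119, Ifit1, Isg15, the promoter genes and others of the lists) were picked after their values were seen. Promoters came from RefSeq (GRCm38.p6) and gene coordinates from the deposited table of the other experiment (GRCm39).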

Additional observations from a re-analysis of the deposited data

Results flagged for a closer look

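In 15 of the 17 cases below the value that stood out belonged to WT LPS 7 or KO ns 6. P2ry12 and Saa3, by which the samples had been chosen, were not looked at. Of 44 groups of 6 samples, 17 had a highest or lowest sample whose gap to the next was larger than Dixon's 95% limit, 7 of them in WT LPS 7 and 8 in KO ns 6. Chance flags about 1 in 20 groups, but the count cannot be read against that share. The measures are not independent of each other, and their genes were chosen with earlier results of these data known. The mitochondrial share had already set WT LPS 7 and KO ns 6 apart, so its flags were fixed in advance.

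In WT LPS 7, Pgk1 was at 261.1 CPM (next highest 78.68), Il6 at 61.98 CPM (4.045), Ccl3 at 1911 CPM (138.1), Tnf at 511.7 CPM (142.6) and P2ry13 at 1139 CPM (504.2). The mean log2 CPM of the respiratory chain subunits was 7.565 there (5.814), and mitochondrially encoded genes took 6.742% of counts (1.812%).

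In KO ns 6, Pgk1 was at 282.6 CPM (146.5), Il6 at 31.79 CPM (12.98), Ccl3 at 57.38 CPM (22.01), Ccr1l1 at 8.901 CPM (1.952) and P2ry13 at 1585 CPM (497.8), and Amz1 was lowest at 48.64 CPM (next lowest 75.19). The mean log2 CPM of the respiratory chain subunits was 7.212 (5.334), and mitochondrially encoded genes took 8.551% of counts (1.604%).

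The other 2 cases were Tnf in WT ns 8 at 13.45 CPM (6.115) and Tnf in KO LPS 6 at 147.4 CPM (79.5).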

How the results depend on the processing

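The count of genes called for the interaction was 0 by edgeR in the 24 samples. It stayed 0 with RLE scaling, without a filter on low counts, with at least 5 CPM, without the set term, with a set-by-LPS term, in either library set alone, with WT LPS 8 and 9 apart and with the libraries of number 2 kept. DESeq2 called 6, with 2 LPS genes larger and 1 smaller in KO, and the cause was not tested. Leaving out each of the 24 samples in turn gave 0 to 1 calls; the call was Pgk1 without WT LPS 7. Without WT LPS 7 and KO ns 6 there was 1 call, 1 with RLE scaling and 4 with DESeq2, of which 1 was an LPS gene larger and 1 an LPS gene smaller in KO. In the 19 samples 1 gene was called, Pgk1, an LPS gene there. It counts as smaller in KO because its interaction is opposite in sign to its averaged response. In the 24 and the 22 samples the responses of Pgk1 in WT and KO had opposite signs. In the 19 samples, too, all KO ns samples lay above all KO LPS samples in Pgk1, so smaller there does not mean a weaker rise.

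The number of LPS genes was 7055, and 4309 with a set-by-LPS term, 2468 in set 2 alone, 4533 with number 2 kept and 6709 to 8581 with 1 sample left out. The count of LPS genes with equal responses within the margin was 3121. It was 2009 with the set-by-LPS term, 5696 in set 1 alone, 322 in set 2 alone, 1527 with number 2 kept, 7716 in the 22 samples (7806 with DESeq2, 7724 with RLE) and 7498 in the 19. It was further 820 with a margin of 0.5, 4882 with a margin of 1.5, 1724 of genes called in both WT and KO, 475 of genes with an averaged response of at least 1, and 2764 to 4588 with 1 sample left out.

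Genes at an unadjusted p under 0.05 numbered 1574, from 585 without WT LPS 7 and 610 without KO ns 6 to 2677 without WT LPS 5. With a replicate block of set and library number, edgeR called 0 genes, 1612 had an unadjusted p under 0.05 and 42.16% of LPS genes were equal. The correlation of the deviations of same-numbered samples ran from -0.515 to 0.889 over 33 pairs, with a mean of 0.0458, against -0.00626 over 75 others, so the numbers were not taken as pairs. The highest, 0.889, was that of WT LPS 7 and KO ns 6, which share set 2 and library number 3. For most of the strongest LPS genes the intervals were wider than the 2-fold margin.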
